A study of Drosophila melanogaster with 6 samples.

Results

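Antimicrobial peptide genes encode short secreted proteins that damage bacteria or fungi, and their RNA was followed here in Drosophila S2 cells after knockdown of Brr2. The 10 genes were taken by symbol from the deposited table: the attacins AttA, AttB, AttC and AttD, the cecropins CecA1, CecA2 and CecC, metchnikowin (Mtk), drosomycin (Drs) and diptericin B (DptB). They are 10 of the 17830 genes and 23882 features listed there. S2 is an embryonic cell line with macrophage-like properties. There were 3 control libraries, whose cells are labelled WT, and 3 libraries of cells labelled as Brr2 knockdown. All 6 carry RNAi as the treatment, and the protocol describes cells bathed in double-stranded RNA in serum-free medium before serum was returned, whereas the titles write sh for both groups. The labels do not name the target of the control treatment. Both groups are the same cell line grown with serum and antibiotics, with no microbe or elicitor named in the labels. Whether replicates were separate cultures is not stated in the labels, and the spread behind every p-value may therefore be technical.

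In flies, these genes are the best known outputs of the Imd and Toll pathways. In the Imd pathway, bacterial peptidoglycan binds receptors such as PGRP-LC, the adaptor imd recruits Fadd and the caspase Dredd, and the NF-kappaB factor Relish (Rel) is cut and enters the nucleus. In the Toll pathway, the ligand Spätzle (spz) binds Toll, the complex of Myd88, tub and pll forms, the inhibitor cact is destroyed, and the NF-kappaB factors Dif and dl are released. Attacins, cecropins and diptericins are mainly read as Imd outputs and Drs mainly as a Toll output, with Mtk answering to both; S2 cells hold a working Imd pathway. Fat body, the fly's main source of these peptides, and blood cells both express them.

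Totals were 127654975 to 147620403 estimated counts per library. Levels are given as CPM, counts per 1000000 of a library total scaled by TMM, edgeR's trimmed mean of M values. Brr2, the helicase that unwinds U4 from U6 in the spliceosome and is listed as l(3)72Ab, was at 158.1, 198.5 and 221.1 CPM in control replicates 1 to 3 and at 108.5, 94.02 and 99.8 CPM in knockdown replicates 1 to 3 (log2 fold change -0.93, SE 0.155, edgeR adjusted p = 0.0111). Knockdown replicate 3 had more genes above 0 than any other library, 14926 against 12729 to 13455. Knockdown replicate 1, the highest library for 9 of the 10 genes, had 13325, within the control range.

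The cecropin gene CecA1 and the attacin gene AttB rose after Brr2 knockdown, about 6-fold each, and no antimicrobial peptide gene was called lower. Both were highest in knockdown replicate 1, intermediate in replicate 3 and only modestly above control in replicate 2. AttA and DptB followed the same course across the libraries with similar mean changes but did not pass the test, while CecC and Drs differed little between groups relative to their spread. Cecropins are amphipathic helices that open bacterial membranes. Attacins and diptericins are glycine-rich peptides that act mainly on Gram-negative bacteria.

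**Figure D1:**
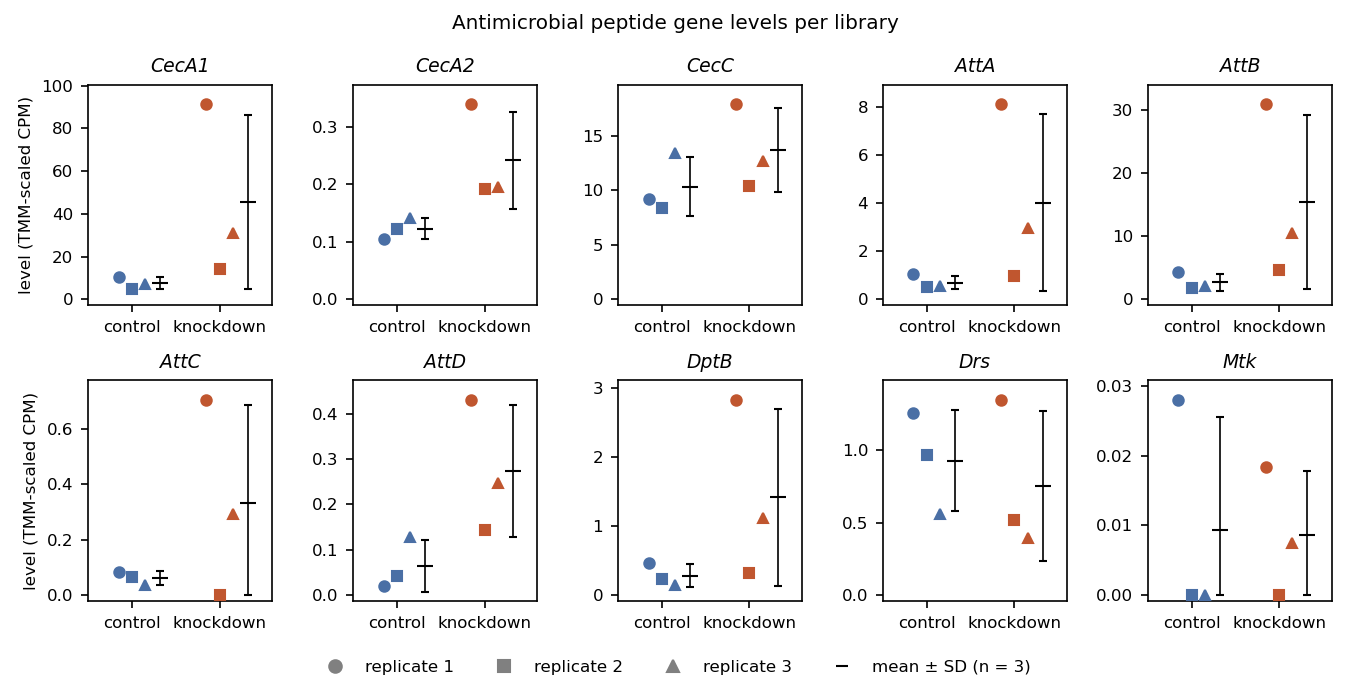
TMM-scaled CPM (y axis, linear, its own scale in each panel) of the 10 antimicrobial peptide genes in the 3 control and 3 knockdown libraries; symbols mark the replicate and black bars the mean ± SD of 3 libraries, with the lower bar stopped at 0. CecA1 reached 91.4 CPM in knockdown replicate 1 against at most 10.5 CPM in control libraries, whereas CecC and Drs overlapped between groups.

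CecA1 (FBgn0000276; BDGP6.54, chromosome arm 3R, 30210874 to 30211273, plus strand, 1 intron) was at 10.5, 4.80 and 7.31 CPM in control replicates 1 to 3 and at 91.4, 14.2 and 31.0 CPM in knockdown replicates 1 to 3. The groups did not overlap, and the knockdown libraries lay far apart from each other. Control libraries averaged 7.54 ± 2.86 CPM and knockdown libraries 45.5 ± 40.6 CPM (SD, n = 3 in both). CecA1 therefore rose 6.03-fold (log2 2.59, SE 0.662, edgeR adjusted p = 0.0382). Its exact 2-sided permutation p over the 6 libraries was 0.1, and no design of 3 against 3 can go lower. CecA1 and CecA2 are close copies whose reads may have been shared, although CecA2 held few.

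AttB (FBgn0041581; chromosome arm 2R, 14749223 to 14750165, plus strand, 1 intron) was at 4.26, 1.75 and 2.10 CPM in control replicates 1 to 3 and at 30.9, 4.63 and 10.5 CPM in knockdown replicates 1 to 3. Knockdown replicate 2 lay just above control replicate 1, so the groups did not overlap but came close. AttB rose 5.67-fold (log2 2.50, SE 0.698, edgeR adjusted p = 0.0492). CecA1 and AttB each lost the call when any 1 library except knockdown replicate 2 was left out, with adjusted p of 0.0651 to 0.129 for CecA1 and 0.0807 to 0.153 for AttB. Without knockdown replicate 1 their log2 fold changes fell to 1.58 and 1.48. Both calls were also lost with limma voom (adjusted p of 0.061 and 0.0882) and with no filter on low counts (0.0776 and 0.0954).

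AttA (FBgn0012042; chromosome arm 2R, 14747362 to 14748215, plus strand, 1 intron), the near-identical neighbour of AttB, was at 1.04, 0.523 and 0.547 CPM in control replicates 1 to 3 and at 8.14, 0.990 and 2.95 CPM in knockdown replicates 1 to 3. Knockdown replicate 2 lay just below control replicate 1, so the groups overlapped. With a log2 fold change of 2.52 (SE 0.731), AttA missed the threshold (edgeR adjusted p = 0.0549). The labels state no pairing, but libraries of the same number tended to deviate together. With the replicate number as a block, the log2 fold change of AttA was 2.14 (SE 0.440) and AttA passed (adjusted p = 0.025). It also passed with upper quartile scaling (0.0481), total counts only (0.0493), DESeq2 (0.000783), a fit on genes without transposon features (0.0481), and without knockdown replicate 2 (0.0182). It did not pass with limma voom (0.124), with no filter (0.105) or without any 1 of the other libraries (0.0944 to 0.174), and its log2 fold change fell to 1.49 without knockdown replicate 1. Reads of AttA and AttB may have been shared between them, which leaves the level of each uncertain. The ratio of AttB to AttA was 4.11, 3.36 and 3.84 in control and 3.79, 4.68 and 3.55 in knockdown libraries, and overlapped between groups.

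DptB (FBgn0034407; chromosome arm 2R, 18867391 to 18867895, plus strand, 1 intron) was at 0.469, 0.236 and 0.147 CPM in control replicates 1 to 3 and at 2.83, 0.319 and 1.11 CPM in knockdown replicates 1 to 3. Only knockdown replicates 1 and 3 lay above all control libraries. Its log2 fold change of 2.32 (SE 0.804, edgeR adjusted p = 0.0888) did not pass, but it was called higher by DESeq2 (adjusted p = 0.0122) and without knockdown replicate 2 (0.0351). With the replicate block its adjusted p was 0.053. Without knockdown replicate 1 the log2 fold change was 1.33 (adjusted p = 0.317). CG43109, annotated on the opposite strand over its end, held at most 6 estimated counts in any library, and CG4744, opposite the end of AttC, at most 16.

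CecC (FBgn0000279; chromosome arm 3R, 30216484 to 30216938, plus strand, 1 intron), a further cecropin gene of the same cluster as CecA1, was at 9.18, 8.40 and 13.4 CPM in control replicates 1 to 3 and at 17.9, 10.4 and 12.7 CPM in knockdown replicates 1 to 3. Control replicate 3 lay above knockdown replicates 2 and 3. CecC did not pass (log2 0.40, SE 0.262, edgeR adjusted p = 0.321), and its log2 fold change was 0.03 with total counts only. Drs (FBgn0283461; chromosome arm 3L, 3369556 to 3369942, plus strand, no intron), an antifungal peptide gene, was at 1.25, 0.967 and 0.559 CPM in control replicates 1 to 3 and at 1.35, 0.519 and 0.396 CPM in knockdown replicates 1 to 3. The groups overlapped, with replicate 1 the highest in both. Drs did not pass either (log2 -0.30, SE 0.540, edgeR adjusted p = 0.728), and its log2 fold change was 0.01 without knockdown replicate 3.

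The remaining members were near the lower limit of the test. CecA2 (FBgn0000277; chromosome arm 3R, 30212156 to 30212568, plus strand), which encodes the same mature peptide as CecA1, held 15 to 23 estimated counts in control and 24 to 37 in knockdown libraries (log2 fold change 0.97, SE 0.506, edgeR adjusted p = 0.220). The groups did not overlap, at 0.105, 0.122 and 0.141 CPM against 0.339, 0.192 and 0.194 CPM. AttD (FBgn0038530; chromosome arm 3R, 17625268 to 17626086, plus strand), an attacin that lacks a signal peptide, held 3, 6 and 21 estimated counts in control and 47, 18 and 33 in knockdown libraries (log2 2.06, SE 0.803, adjusted p = 0.119). Here too the groups did not overlap, although control replicate 3 came close to knockdown replicate 2. AttC (FBgn0041579; chromosome arm 2R, 13393705 to 13394667, plus strand) held 12, 9 and 6 against 77, 0 and 39 estimated counts (log2 2.41, SE 1.34, adjusted p = 0.246), so its knockdown libraries spanned both the lowest and the highest value. Without knockdown replicate 2, which is at 0, AttC was called higher (log2 2.99, adjusted p = 0.0374). Mtk (FBgn0014865; chromosome arm 2R, 15408846 to 15409113, plus strand) held 4, 0 and 0 against 2, 0 and 1 estimated counts and was not tested; it lies inside the Stacl gene on the same strand.

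Of the 9 members that passed the filter on low counts, 2 were called higher and 0 lower in the edgeR test, in which 8.05% of 11590 tested genes were called higher and 9.63% lower (17.7% in either direction, and 16.8% of all 14167 tested features). At an unadjusted p under 0.05 there were 5, all higher, among them AttD, against 35.6% of tested genes in either direction and 16.1% higher. DESeq2 called 4 higher and 0 lower, against 12.7% of genes called higher by that tool, and limma voom called 0 in either direction. Groups did not overlap for 4 of the 9, each higher in knockdown, against 41.8% of tested genes in either direction, 20.1% higher and 21.7% lower; the share in either direction was near that of all genes. The median log2 fold change was 2.32 over the 9 members and -0.02 over all tested genes. The members were chosen with earlier results of these data known, so these counts and medians describe them and are not a test. AttD passed the filter with 1 control and 3 knockdown libraries at the minimum, and AttC with 1 and 2, so both entered mainly through the knockdown group. In bulk RNA, more cells expressing a gene and more RNA per expressing cell cannot be told apart.

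Per kilobase of exon, the control libraries ranked CecC (26.8 ± 7.02 CPM per kb) and CecA1 (22.3 ± 8.44) first, and these did not differ beyond their SD (n = 3). AttB (3.08 ± 1.54) and Drs (2.39 ± 0.902) came next and were likewise not separated. AttA (0.889 ± 0.367), DptB (0.633 ± 0.370) and CecA2 (0.346 ± 0.0510) followed, and AttD, AttC and Mtk lay under 0.1 CPM per kb. In knockdown libraries CecA1 led with 134 ± 119.7 CPM per kb, ahead of CecC at 35.4 ± 9.99, AttB at 17.4 ± 15.67, AttA at 5.10 ± 4.67 and DptB at 3.17 ± 2.86. By mean and SD, CecA1 was thus not separated from CecC in control libraries. Within each control library, CPM of CecA1 over CecC was 1.14, 0.572 and 0.544, so CecA1 was the lower in replicates 2 and 3. CecA1 held the largest mean after knockdown, with an SD nearly as large as that mean. Summed over the 10 genes, control libraries held 26.95, 16.9 and 24.4 CPM and knockdown libraries 154, 31.4 and 59.4 CPM. CecA1 held 28.4% to 39.0% of that sum in control and 45.3% to 59.3% in knockdown libraries.

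The knockdown libraries differed among themselves more for CecA1, AttB, AttA and DptB than for most genes of like level. On the log2 CPM scale CecA1 spanned 2.68 between its highest and lowest knockdown library. Among 3001 genes within 2-fold of its mean level the median span was 0.31, and 0.300% of them spanned as much. The spans were 2.73 for AttB, 3.02 for AttA and 3.09 for DptB, reached by 0.771%, 2.28% and 4.53% of genes of like level. CecC spanned 0.79, reached by 10.8%. In control libraries CecA1 spanned 1.13 and AttB 1.27. The order of the knockdown libraries, replicate 1 above 3 above 2, was that of CecA1, CecA2, CecC, AttA, AttB, AttC, AttD and DptB, but not of Drs. Remaining Brr2 was 108.5 CPM in replicate 1, 94.02 in replicate 2 and 99.8 in replicate 3, and its part in these differences was not tested.

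**Figure D2:**
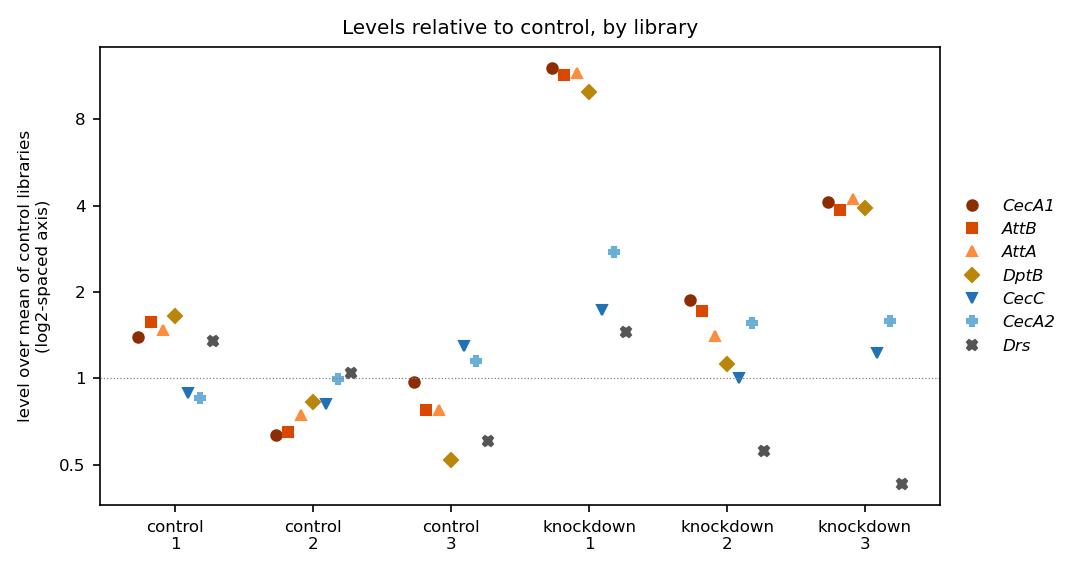
Level of 7 antimicrobial peptide genes in each library divided by the mean of the control libraries (log2-spaced y axis; 1 is the control mean); each symbol is 1 gene in 1 library. CecA1, AttB, AttA and DptB lie at 9.96 to 12.1 in knockdown replicate 1 and at 3.88 to 4.21 in replicate 3, above CecC, CecA2 and Drs; in replicate 2 they lie at 1.12 to 1.88, a range that also holds CecA2 at 1.56.

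Compared with the control library of the same number, CecA1 was 8.69-fold, 2.96-fold and 4.24-fold higher in knockdown replicates 1, 2 and 3, and AttB 7.25-fold, 2.64-fold and 4.999-fold. AttA was 7.85-fold, 1.89-fold and 5.40-fold higher and DptB 6.03-fold, 1.35-fold and 7.56-fold. These 4 genes, AttD and CecA2 were higher in 3 of 3 such pairs, CecC and AttC in 2, and Drs in 1. The share of all tested genes higher in 3 of 3 such pairs was not computed, and the labels state no pairing. These counts are therefore a description only. CecA1 and AttB kept their calls in the fit with the replicate block (log2 2.26, SE 0.306, adjusted p = 0.0109, and log2 2.21, SE 0.302, adjusted p = 0.011). In that fit 11.3% of tested genes were called higher.

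The genes most like CecA1, AttB and AttA across the 6 libraries were largely each other. Likeness was measured as the root-mean-square difference of centred log2 CPM over the 6 libraries, searched over all 11590 tested genes. The gene nearest to CecA1 was AttB, at 0.15, and the second AttA, at 0.22. For AttA the nearest 3 were AttB (0.15), CecA1 (0.22) and DptB (0.25). The third for both CecA1 and AttB was CR42842, a pseudogene on chromosome arm 3L, at 0.25 and 0.22, which was at 1.22, 0.401 and 0.626 CPM in control and 7.51, 1.27 and 1.99 CPM in knockdown libraries (log2 2.26, edgeR adjusted p = 0.0756). CR42842 was called higher with the replicate block (log2 1.99, adjusted p = 0.0121). CecA1 lies on chromosome arm 3R and the attacin pair on 2R. By the same measure CecC differed from CecA1 by 1.13, and Drs from CecA1 by 1.47. Reads of AttA and AttB may have been shared, and the part of such sharing in their likeness was not tested.

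The peptide genes Anp, CecA1, CecA2, CecB and CecC, lie within 6991 bp of chromosome arm 3R, and their changes differed in size and direction. Anp, which encodes andropin, a peptide known from the male reproductive tract, starts the cluster and ends 491 bp before CecA1. It was at 4.91, 3.97 and 4.76 CPM in control and 3.22, 2.16 and 2.22 CPM in knockdown libraries, with no overlap (log2 -0.84, SE 0.232, edgeR adjusted p = 0.0476). CecB, on the minus strand, was at 2.98, 2.13 and 2.19 CPM in control and 8.39, 2.02 and 3.42 CPM in knockdown libraries, and knockdown replicate 2 lay below all controls (log2 0.92, SE 0.496, adjusted p = 0.232). Anp lost its call whichever library was left out (0.0543 to 0.149), under upper quartile scaling (0.0767) and with no filter (0.0738).

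Ratios within a library do not depend on scaling between libraries. CecA1 over CecC was 1.14, 0.572 and 0.544 in control and 5.10, 1.37 and 2.45 in knockdown libraries. CecA1 over Anp was 2.14, 1.21 and 1.54 in control and 28.4, 6.56 and 14.0 in knockdown libraries. CecA1 over CecB was 3.52, 2.26 and 3.35 in control and 10.9, 7.03 and 9.07 in knockdown libraries. All 3 ratios were higher in every knockdown library than in any control library, each with exact 2-sided permutation p = 0.1, the smallest possible, and 0.167 after adjustment over the 5 ratios computed. The differences of the mean log2 ratios were 1.86, 3.12 and 1.57. The other 2 ratios, AttB over AttA and AttA over Dro, overlapped between groups (exact permutation p = 0.7 each). The ratios were chosen after the values were seen. Annotated pseudogenes inside the cluster, Cec2 and Cec-Psi1, held at most 3 and 10 estimated counts.

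**Figure D3:**
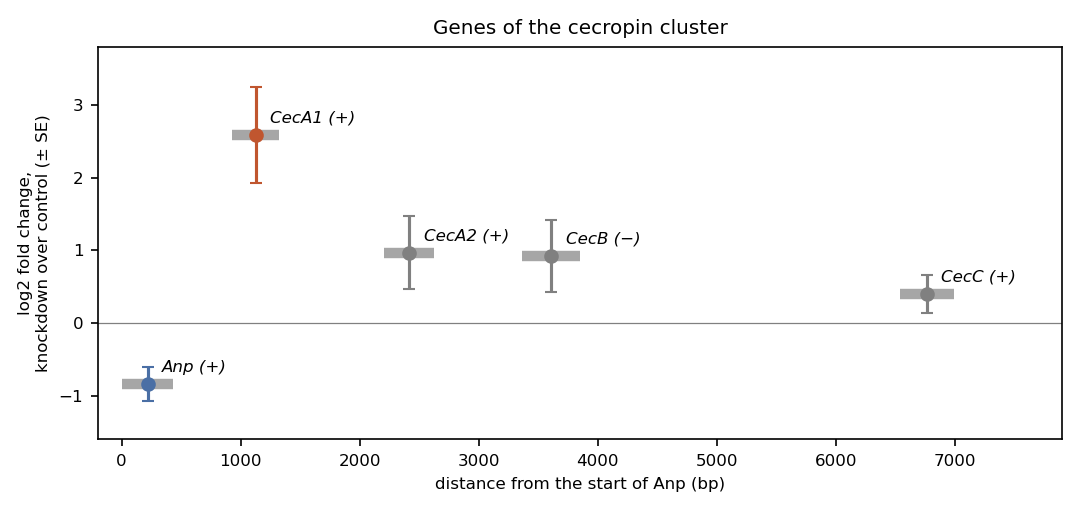
Log2 fold change, knockdown over control, with its SE (y axis) for the 5 genes of the cecropin cluster, placed by distance in bp from the start of Anp (x axis); grey bars show each gene's extent, orange and blue points passed the test as higher and lower, and grey points did not pass. CecA1 at 2.59 lies next to Anp at -0.84.

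Among other antimicrobial and immune peptide genes, 0 of 11 tested rose and 2 fell, Anp and Dso1. Over all tested genes, 8.05% rose and 9.63% fell. The list's median log2 fold change was 0.16. Dso1 (daisho 1, listed as IM4), a Toll-induced peptide gene, fell to 0.277 of its control level, from 0.599 ± 0.0910 to 0.165 ± 0.0635 CPM (log2 -1.85, SE 0.450, edgeR adjusted p = 0.0332). Dro (drosocin), which ends 647 bp before AttA, was at 0.399, 0.1002 and 0.258 CPM in control and 1.61, 0.375 and 1.05 CPM in knockdown libraries (log2 2.00, SE 0.675, adjusted p = 0.0826). Dro was called higher with the replicate block (adjusted p = 0.0145), as was BaraA1, a baramicin gene listed as CG33470 (log2 1.29, adjusted p = 0.0537 without the block and 0.0247 with it). DptA, the neighbour of DptB, was under the filter. All 6 BomS genes but BomS3, and 10 of the 32 listed genes in all, were at 0 in every library. Dso1 lost its call without any 1 library except knockdown replicate 2 (0.052 to 0.104), and also with no filter (0.0552).

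In the Imd pathway from receptor to Relish, 0 of 16 tested genes rose and 2 fell, beside 8.05% and 9.63% of all tested genes. The list's median log2 fold change was -0.04. Dredd, the caspase that cuts Relish, was at 37.3, 33.8 and 33.3 CPM in control and 11.2, 18.3 and 13.0 CPM in knockdown libraries, so it fell to 0.408 of the control level (log2 -1.30, SE 0.192, edgeR adjusted p = 0.00852). Diap2, the ubiquitin ligase that acts with imd and Dredd, fell to 0.576 (adjusted p = 0.032). Rel itself did not pass, at 168, 113 and 103 CPM in control and 160, 124 and 126 CPM in knockdown libraries (log2 0.09, adjusted p = 0.795; -0.23 with total counts only). Nor did imd (log2 -0.29, adjusted p = 0.168) or the receptor gene PGRP-LC (log2 0.55, SE 0.157, adjusted p = 0.0511), although PGRP-LC was higher in every knockdown library, at 24.3, 18.7 and 19.4 CPM against 15.71, 14.3 and 12.5 CPM. PGRP-LC was called higher with the replicate block (adjusted p = 0.0252), by DESeq2 (0.0141), under upper quartile scaling (0.0294), when only features with a mean of at least 5 CPM were tested (0.0249), and in the fit on genes without transposon features (0.0412). It did not pass with total counts only (log2 0.22, adjusted p = 0.297), limma voom (0.05005) or no filter (0.0857). Nor did it pass without any 1 library (0.0651 to 0.177). The Dredd call was kept without each library in turn, and that of Diap2 was lost when replicate 1 or 2 of the controls, or 1 or 3 of the knockdowns, was left out (0.0981 to 0.114), and with no filter (0.0577).

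Among inhibitors of the Imd pathway 4 of 11 tested genes rose and 1 fell, beside 8.05% and 9.63% of all tested genes. The list's median log2 fold change was 0.39. PGRP-LF, a receptor-like protein that blocks PGRP-LC, was at 12.6, 8.05 and 10.6 CPM in control and 30.2, 17.0 and 23.5 CPM in knockdown libraries (log2 1.17, SE 0.252, edgeR adjusted p = 0.0228). Charon, also known as pickle, an IkappaB-like protein that binds Relish, rose 1.99-fold (adjusted p = 0.0205), dnr1, which restrains Dredd, 2.67-fold (0.0371), and casp (caspar), which blocks Relish cleavage, 1.31-fold (0.0458). Pvr, a receptor tyrosine kinase whose signal dampens Imd output, fell to 0.405 of its control level, from 1392 ± 48.4 to 564 ± 154 CPM (adjusted p = 0.0103). The feedback inhibitor pirk, itself a Relish target, was at 4.18, 1.25 and 0.995 CPM in control and 4.18, 1.29 and 2.15 CPM in knockdown libraries and did not pass (log2 0.25, adjusted p = 0.814). The Pvr call was kept without each library. Those of PGRP-LF and Charon were lost when the same 4 libraries were left out in turn (0.0501 to 0.0812), that of dnr1 also without control replicate 3 (0.0526 to 0.122), and that of casp whichever library was left out (0.0707 to 0.126). With total counts only, casp (0.777) and Charon (0.073) lost their calls, and with no filter, casp (0.072) and dnr1 (0.0714).

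**Figure D4:**
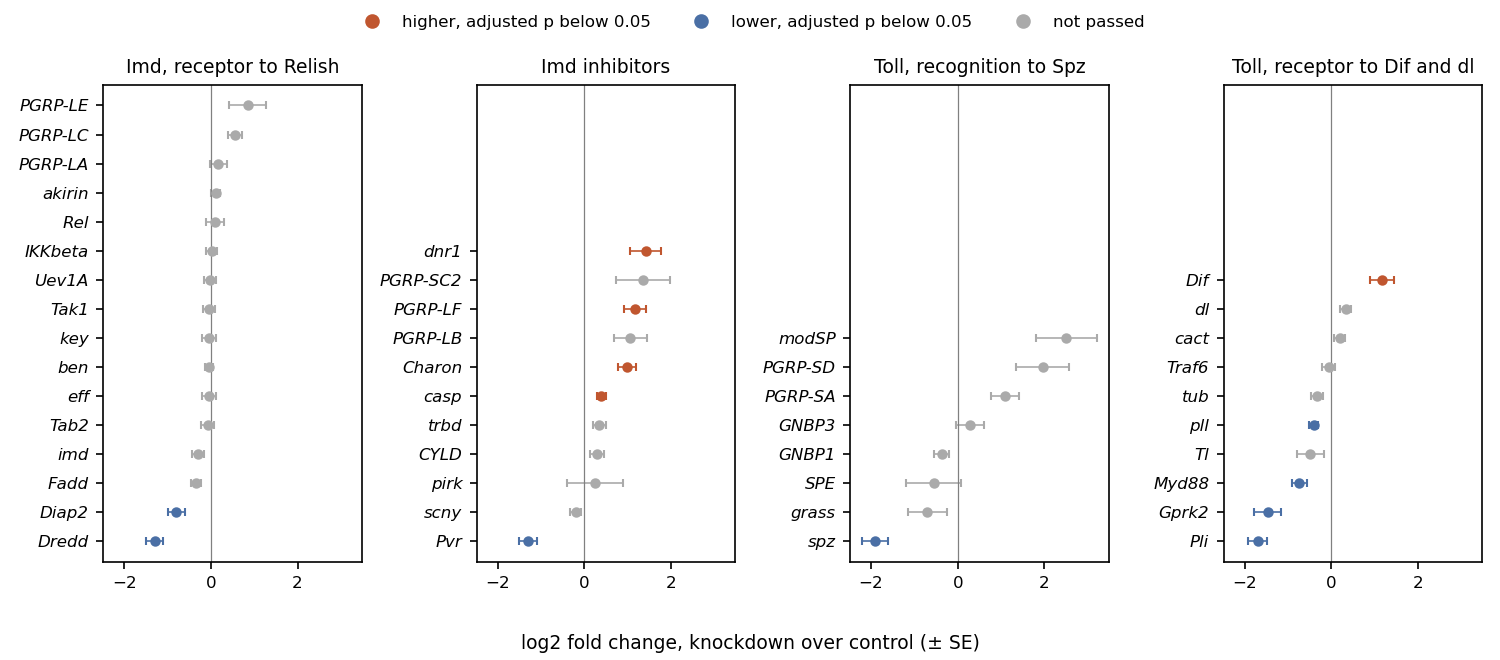
Log2 fold change, knockdown over control, with its SE (x axis) for the tested genes of the Imd and Toll pathways (rows), in 4 panels by role; orange and blue points passed the edgeR test as higher and lower, and grey points did not. Dredd, Diap2, Pvr, spz, Pli, Gprk2, Myd88 and pll lie to the left and PGRP-LF, Charon, dnr1, casp and Dif to the right.

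In the Toll pathway from recognition to Spätzle, 0 of 8 tested genes rose and 1 fell, beside 8.05% and 9.63% of all tested genes. The list's median log2 fold change was -0.05. The ligand gene spz was at 270, 129 and 133 CPM in control and 47.1, 42.7 and 52.1 CPM in knockdown libraries, so it fell to 0.267 (log2 -1.91, SE 0.301, edgeR adjusted p = 0.00994). The recognition genes PGRP-SA and PGRP-SD did not pass (2.14-fold, adjusted p = 0.0563, and 3.88-fold, adjusted p = 0.0651), nor did the protease gene modSP (5.67-fold, adjusted p = 0.0506). GNBP1, grass and SPE leaned the other way and did not pass (log2 -0.37, -0.70 and -0.56, edgeR adjusted p of 0.156, 0.310 and 0.570). PGRP-SD, at 2.55, 1.40 and 0.688 CPM in control and 10.6, 3.08 and 4.38 CPM in knockdown libraries, had replicate 1 highest in both groups, as CecA1 did. The level of modSP was 0.063, 0.043 and 0.123 CPM in control and 0.165, 0.439 and 0.710 CPM in knockdown libraries. Its control levels lay around the filter's minimum of 0.0751 CPM, so it may have entered the test mainly through the knockdown group. With the replicate block PGRP-SA, PGRP-SD and modSP were called higher (adjusted p of 0.00798, 0.0162 and 0.043), which changes the count from 0 to 3. That fit called 11.3% of all tested genes higher.

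From the receptor to the NF-kappaB factors, 1 of 10 tested genes rose and 4 fell, beside 8.05% and 9.63% of all tested genes. The list's median log2 fold change was -0.37. Dif was at 12.7, 15.5 and 22.6 CPM in control and 48.8, 28.0 and 38.2 CPM in knockdown libraries, a 2.26-fold rise (log2 1.18, SE 0.272, edgeR adjusted p = 0.0285). Its partner dl did not pass (log2 0.34, adjusted p = 0.108). With upper quartile scaling and the 5 CPM filter dl was called higher (0.0425 and 0.04). It was not with total counts only (log2 0.008, adjusted p = 0.967) or without any 1 library (0.0946 to 0.272). The inhibitor cact did not pass either (log2 0.20, adjusted p = 0.298, and log2 -0.14 with total counts only). The ubiquitin ligase Pellino, listed as Pli, fell to 0.309, the kinase gene Gprk2 to 0.362, Myd88 to 0.601 and the kinase gene pll to 0.754, with adjusted p of 0.00581, 0.0211, 0.0299 and 0.047. The calls of Pli and spz were kept without each library. Those of Dif, Gprk2 and Myd88 were lost when control replicate 1, control replicate 2, knockdown replicate 1 or knockdown replicate 3 was left out (0.0731 to 0.113), and that of pll whichever library was left out (0.0618 to 0.139). Dif lost its call with total counts only (0.0918), and Dif, Myd88 and pll with no filter (0.0623, 0.0536 and 0.0541). The pll call was also lost with upper quartile scaling (0.124), the 5 CPM filter (0.0735) and the fit on genes without transposon features (0.0526).

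Of 9 tested genes for other transcription factors known at antimicrobial peptide promoters, 0 rose and Mef2 fell, to 0.650 of its control level (edgeR adjusted p = 0.0276). Mef2 lost its call without any 1 library except knockdown replicate 2 (0.051 to 0.103), and with upper quartile scaling (0.0513). The GATA factor gene srp, active at these promoters in blood cells and fat body, was at 96.4, 111 and 114 CPM in control and 84.3, 116 and 92.6 CPM in knockdown libraries and did not pass (log2 -0.13, adjusted p = 0.577). Of 10 tested genes known to be induced along with antimicrobial peptides, which include some inhibitor and recognition genes above, 1 rose, the transferrin gene Tsf1 (log2 1.21, SE 0.335, adjusted p = 0.0486). It lost that call without any 1 library except control replicate 2 (0.0857 to 0.159), with total counts only (0.081) and with no filter (0.0878). Counting each gene of all these lists once, 6 of 69 tested genes rose and 11 fell, beside 8.05% and 9.63% of all tested genes. With the replicate block 12 rose, beside 11.3% of all tested genes.

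Markers of cell types were read beside these values. Of 14 plasmatocyte markers, srp, ush, crq, Col4a1, vkg and Nplp2 were above 10 CPM in every library, while Hml, NimC1, Sr-CI, Fer3HCH and gcm averaged under 1 CPM. The others, eater, Pxn and He, averaged 15.3, 5.22 and 1.72 CPM over the 6 libraries. Whether the cells are macrophage-like was not tested. Of the 13 tested, He rose (log2 3.26, edgeR adjusted p = 0.00903) and Pxn fell (log2 -2.75, adjusted p = 0.00423). Nplp2 was at 117.7, 15.04 and 26.3 CPM in control and 354.5, 61.4 and 131.5 CPM in knockdown libraries, with replicate 1 highest in both groups; it did not pass (log2 1.78, edgeR adjusted p = 0.199) but passed with the replicate block (adjusted p = 0.00523). The block also called Col4a1, vkg and eater lower (adjusted p of 0.0106, 0.0132 and 0.0363), which did not pass without it (0.0804, 0.116 and 0.106). The 8 fat body markers summed to 1.33 to 2.75 CPM in control and 4.34 to 9.49 CPM in knockdown libraries. Of the 4 tested, Lsp1gamma rose 3.59-fold (adjusted p = 0.0418) and lost the call without control replicate 2 or any 1 knockdown library (0.0728 to 0.116), with total counts only (0.0701) and with no filter (0.0816). Lsp1beta did not pass (log2 2.99, adjusted p = 0.088) but passed with the block (adjusted p = 0.00994). Lsp1beta was at 0.105, 0.0716 and 0.872 CPM in control and 2.34, 0.990 and 5.06 CPM in knockdown libraries. Lsp2 was at most 0.0246 CPM in control and at 0.119, 0.0479 and 0.127 CPM in knockdown libraries. Fbp1 and Lsp1alpha were at 0 in knockdown replicates 1 and 2, Adh in 2 and 3, and Fbp2 in all 3. The 5 crystal cell markers summed to 13.1 to 19.4 CPM in control and 9.29 to 13.5 CPM in knockdown libraries. The highest of them in all 6 libraries, mthl10, fell (log2 -1.01, edgeR adjusted p = 0.0298). The other 3 tested, lz, PPO1 and peb, did not pass (log2 2.13, 1.41 and 1.47, adjusted p of 0.359, 0.332 and 0.357), and PPO1 was called higher with the block (0.0309). The sums were 666 to 768 against 668 to 890 CPM for 5 lamellocyte markers and 42.8 to 44.5 against 18.1 to 35.7 CPM for 7 gut markers, with 0 called among those tested. The part of these markers in the changes of peptide genes was not tested.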

How the data were processed

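RNA of 6 S2 libraries was measured after ribosomal RNA depletion, per the labels' protocols. Estimated counts, deposited as unscaled whole numbers, are listed for genes and for transposon copies. The submitters' processing notes name Trimmomatic, TopHat2 and the genome build BDGP6. The sources used here do not say how reads were counted, whether by strand, or how multiply mapped reads were treated. A mean of 438.2 features per library held the value 4 against 368.5 at 2, so values may not be separate reads, and near-identical genes are uncertain. Positions and exon lengths came from Ensembl release BDGP6.54, matched by gene identifier.

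Tests used edgeR 4.0.16 in R 4.3.3 (glmQLFit, glmQLFTest, TMM, filterByExpr, Benjamini-Hochberg over 14167 features, threshold 0.05); SE was taken as the size of the log2 fold change divided by the root of F. Named genes were Brr2, the 10 members, up to 8 called genes per list, 7 core pathway genes and, for members at 1 CPM or more, the 3 nearest genes. CecB, Dro, BaraA1, BaraC, Drsl5, PGRP-SA, PGRP-SD, modSP, GNBP1, grass, SPE, pirk, srp and the markers named were added for their values. Members and lists were chosen with earlier results of these data known. Alternatives were other scalings and filters, DESeq2 1.42.0, limma 3.58.1 voom, the replicate number as a block, and each library left out in turn. Deviations from group means correlated at 0.16, 0.239 and 0.317 between libraries of the same number, and at -0.229 to 0.0506 otherwise. These correlations come from the same data and do not establish a pairing. The labels state none, so the main fit held no replicate block. Libraries within a group all differed by more than counting noise. Control replicate 3 lay farthest from its group, with a chi-square per degree of freedom of 1442 and 1229 against control replicates 1 and 2. It was 216 between control replicates 1 and 2, and 103 to 243 among knockdown libraries. Promoter and protein sequences were not analysed here.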

Additional observations from a re-analysis of the deposited data

How the results depend on the processing

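The count of antimicrobial peptide genes called higher was 2, and became 4 with DESeq2, 0 with limma voom and 0 with no filter. It was 3 with upper quartile scaling, total counts only, the replicate block and the fit on genes without transposon features. It ranged from 0 to 5 when 1 library was left out, with 5 without knockdown replicate 2 and 0 without any other library. Those fits have fewer samples. The 5 include AttC, which passed the filter mainly through the knockdown group and was at 0 in the library left out. The count called lower was 0 in every setting. Genes called higher in all were 933 (573 with total counts only, 1441 with DESeq2, 598 with no filter, 342 to 917 without 1 library), and genes called lower 1116 (2788, 1761, 660, and 281 to 1115). Pathway list genes called higher were 6, and 11 with upper quartile scaling, 2 with total counts only, 12 with DESeq2, 2 with no filter, 12 with the replicate block and 0 to 6 without 1 library. Those called lower were 11, and 17 with total counts only, 6 with no filter and 4 to 9 without 1 library. Total counts only shifted the median gene by -0.34 and upper quartile scaling by 0.12 (log2). Transposon features held 19.4% to 23.6% of counts in control and 35.7% to 36.7% in knockdown libraries. TMM factors were 1.04 to 1.26 in control and 0.855 to 0.914 in knockdown libraries, so gene fold changes depend on the scaling. That of CecA1 was log2 2.59 with TMM and 2.24 with total counts only. The log2 fold change of Brr2 stayed between -1.05 and -0.81 without 1 library.

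Signs changed for Drs (-1.02 to 0.0073 without 1 library, above 0 without knockdown replicate 3), Rel (-0.23 with total counts only, -0.042 to 0.35 without 1 library, below 0 without control replicate 3 or knockdown replicate 1) and cact (-0.14 with total counts only), none of them called. The causes of these changes were not tested. CecA1, AttB, AttA, AttC, AttD, DptB, CecA2 and CecC kept a positive sign in every setting in which they were tested. Values of AttC, AttD, CecA2 and Mtk are limited by depth.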

Other observations

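The genes nearest to CecC in pattern were not peptide genes. They were CG34008 at a root-mean-square difference of 0.05, CG43110 at 0.07 and osp at 0.09 on the centred log2 CPM scale over 6 libraries. CG34008 was at 1.86, 1.92 and 2.97 CPM in control and 3.89, 2.26 and 2.84 CPM in knockdown libraries, and did not pass the edgeR test (adjusted p = 0.366).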
